A study of Mus musculus with 10 samples.

Results

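The genes of MHC class II antigen presentation were H2-Aa, H2-Ab1, H2-Eb1, H2-DMa, H2-DMb1, H2-DMb2, Cd74, Ciita, Ctss and Rfx5, 10 genes chosen by name. Each of the 10 had a row among the 24839 rows of the deposited expression table, and all 10 were among the 10321 genes tested, whose mean FPKM over the 10 libraries was 1 or more. FPKM are mapped fragments scaled to transcript length and library size, so they allow levels of different genes to be compared per length. The table holds poly(A)-selected messenger RNA of mouse small intestinal epithelial cells, 5 libraries titled HCD and 5 titled NCD. Per the series title HCD means high cellulose diet, and what NCD stands for is not written out in the sources used here. All 5 HCD libraries carry the treatment label OVA (ovalbumin, an egg white protein used as a food allergen), and all 5 NCD libraries are labelled untreated. The design text describes 60 days of diet, then 2 injections of 50 µg OVA with 1 mg alum on days 0 and 14 and 5 oral doses of 50 mg OVA, with saline for the groups without OVA. Diet and OVA, and the library numbers, which are lower in every NCD library than in every HCD library, cannot be told apart in this comparison. Strain, sex and age of the mice are not given in the labels, and no label says whether each library is from its own mouse. The p-values therefore measure only the spread between these libraries.

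MHC class II molecules display peptides from endocytosed proteins to CD4+ T cells. An alpha and a beta chain assemble in the endoplasmic reticulum with the invariant chain, encoded by Cd74, which is cut away in endosomes by proteases such as cathepsin S, encoded by Ctss. The H2-DM heterodimer then exchanges the remaining invariant chain fragment for peptide, and H2-O restrains H2-DM. Transcription of the chain genes, Cd74 and the H2-DM genes needs the coactivator CIITA. This coactivator docks on RFX, NF-Y and CREB proteins bound to the X and Y boxes of the promoters. B cells, dendritic cells and macrophages express class II genes constitutively, and in the intestine enterocytes also carry class II, which interferon-gamma induces.

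The promoters of 5 class II genes are shown for the paired boxes that the genes have in common, and that of H2-DMb2 for its difference from H2-DMb1. They are RefSeq sequences of build GRCm38.p6, read 5′ to 3′ on the gene's own strand. Capitals mark the core of the X box, searched as GNAAC, and the Y box, searched as GATTGG.
H2-Aa: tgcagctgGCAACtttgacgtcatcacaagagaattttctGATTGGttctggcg
H2-Eb1: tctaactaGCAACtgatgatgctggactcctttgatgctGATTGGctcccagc
H2-DMb1: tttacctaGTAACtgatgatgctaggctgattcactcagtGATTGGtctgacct
H2-DMb2: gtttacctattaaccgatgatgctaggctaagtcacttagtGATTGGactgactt
H2-Oa: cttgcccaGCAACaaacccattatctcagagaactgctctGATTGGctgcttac
H2-Ob: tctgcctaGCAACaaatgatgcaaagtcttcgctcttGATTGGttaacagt

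These stretches lie on chromosome 17, at chr17:34287859-34287912 on the minus strand for H2-Aa, and on the plus strand at chr17:34305768-34305820 for H2-Eb1, chr17:34153089-34153142 for H2-DMb1, chr17:34145117-34145171 for H2-DMb2, chr17:34092295-34092348 for H2-Oa and chr17:34238810-34238860 for H2-Ob. The letters were taken from the textbook X and Y boxes with these promoters in view, and both strands were searched. A pair of GNAAC followed by 20 to 30 bases and GATTGG was present in 213 of 32544 promoter windows of 300 bases, 0.654%, while GNAAC alone was present in 84.8% and GATTGG alone in 16.1%. The gap was 27 bases in H2-Aa, H2-DMb1 and H2-Oa, 26 in H2-Eb1 and 24 in H2-Ob, and the X core lay 76 to 94 bases before the RefSeq start. In H2-DMb2 the letters GNAAC are not at the place where its near copy H2-DMb1 has them. The windows of H2-DMa, Ctss and Rfx5 held no such pair. Windows were available for 7 of the 10 genes. A match is a description of letters and says nothing of binding in these samples.

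The 3 classical chains are neighbours on chromosome 17. On GRCm38 with GENCODE release M21, H2-Ab1 (ENSMUSG00000073421), the beta chain of H2-A, spans 34257689 to 34269419 on the plus strand. H2-Aa (ENSMUSG00000036594), the alpha chain of H2-A, spans 34282744 to 34287823 on the minus strand, and H2-Eb1 (ENSMUSG00000060586), the beta chain of H2-E, spans 34305867 to 34316674 on the plus strand. None of the 3 passed the test between the groups, although each was higher on average in HCD, and their spread was much wider among NCD libraries. H2-Ab1 was at 287.8, 264.3, 241.2, 347.5 and 277.1 FPKM in HCD libraries 1 to 5, against 84.8, 289.2, 111.5, 207.7 and 244.8 FPKM in NCD libraries 1 to 5. The HCD libraries lay close together, while NCD libraries 2 and 5 reached into their range and NCD libraries 1 and 3 lay far below it, so the groups overlapped. The mean was 283.6 ± 39.8 FPKM in HCD and 187.6 ± 87.1 FPKM in NCD (SD, n = 5 each), a ratio of 1.51. The difference of log2(FPKM + 1), HCD minus NCD, was 0.73 with a standard error of 0.281 and a 95% confidence interval of 0.13 to 1.33, and the Benjamini-Hochberg adjusted p over all 10321 genes from limma was 0.0688. These are bulk libraries, in which fewer cells of a type and less RNA per cell cannot be told apart.

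H2-Aa was at 210.0, 201.1, 211.3, 259.2 and 210.4 FPKM in HCD libraries 1 to 5, against 91.1, 254.8, 118.9, 176.3 and 202.3 FPKM in NCD libraries 1 to 5. H2-Eb1 was at 243.8, 251.1, 214.0, 323.5 and 275.7 FPKM in HCD, against 83.1, 327.4, 107.3, 205.5 and 246.2 FPKM in NCD in the same order. In both genes NCD libraries 1 and 3 were the lowest of all 10, and the groups overlapped through NCD libraries 2 and 5. The log2 difference was 0.46 for H2-Aa (95% confidence interval -0.03 to 0.94, limma adjusted p = 0.15) and 0.59 for H2-Eb1 (-0.06 to 1.24, limma adjusted p = 0.164). The 3 chains summed to between 666.5 and 930.3 FPKM in HCD libraries and between 259.0 and 871.3 FPKM in NCD libraries.

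Cd74, the invariant chain and chaperone of the class II dimer, was the most abundant of the 10 genes. It was at 1353, 1412, 1151, 1621 and 1667 FPKM in HCD libraries 1 to 5, against 491.7, 1633, 789, 1084 and 1439 FPKM in NCD libraries 1 to 5. The order of the NCD libraries was that of the chains, with library 1 lowest and library 2 highest, and the groups overlapped. The mean was 1441 ± 209.5 FPKM in HCD and 1087 ± 465 FPKM in NCD (SD, n = 5 each), and the log2 difference was 0.52 (95% confidence interval -0.06 to 1.10, limma adjusted p = 0.174). Cd74 stayed in a narrow ratio to the chains it accompanies. Its FPKM divided by the summed FPKM of H2-Aa, H2-Ab1 and H2-Eb1 was 1.73 to 2.18 in HCD libraries and 1.84 to 2.34 in NCD libraries, across a range of more than 3-fold in NCD for Cd74 itself. Cd74 and the 3 chains together made up 0.298% to 0.436% of the summed FPKM of a library in HCD and 0.129% to 0.441% in NCD.

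**Figure D1:**
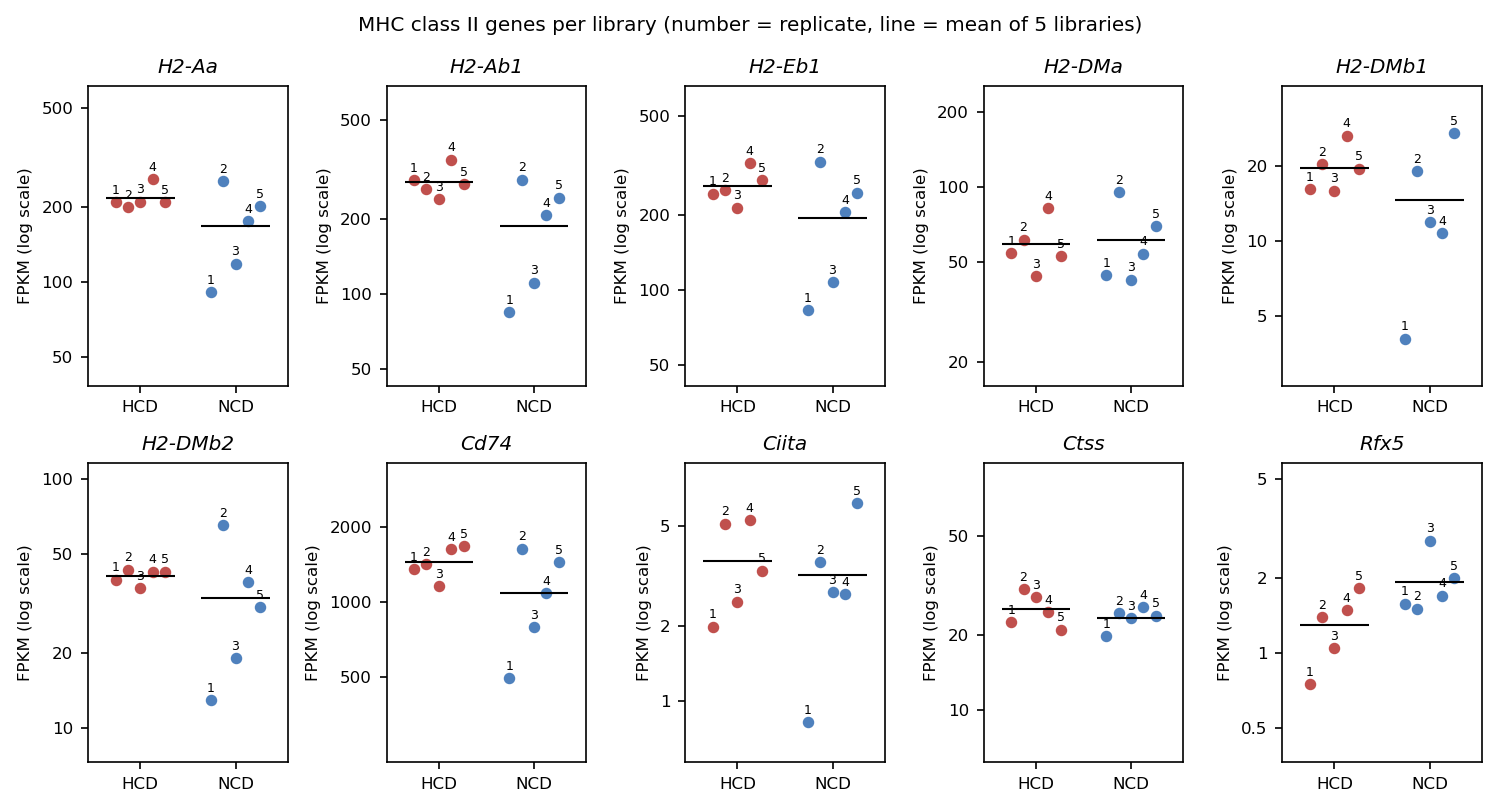
FPKM on a log axis for the 10 class II genes, 1 panel a gene and the same fold range in every panel. Red points are the 5 HCD libraries and blue points the 5 NCD libraries, the number is the replicate and the line is the mean. For H2-Ab1 the HCD points lie between 241.2 and 347.5 FPKM and the NCD points between 84.8 and 289.2 FPKM, with NCD libraries 1 and 3 lowest.

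The genes of the H2-DM exchange factor lie in the same gene cluster on chromosome 17, and none of the 3 passed. H2-DMa (34119541 to 34139101, plus strand), its alpha chain, was at 54.3, 61.7, 43.9, 82.4 and 53.0 FPKM in HCD libraries 1 to 5, against 44.5, 95.7, 42.6, 54.2 and 70.1 FPKM in NCD libraries 1 to 5. The groups overlapped over most of their range and the means were close, 59.0 ± 14.5 FPKM in HCD and 61.4 ± 22.1 FPKM in NCD (SD, n = 5 each). The log2 difference was -0.02 (95% confidence interval -0.49 to 0.45, limma adjusted p = 0.957), and its sign turned positive when scaling left out the mitochondrial genes (0.15) and with quantile normalisation (0.24). H2-DMa shares 360 exonic bases with Brd2 on the opposite strand, at 74.1 FPKM on average, and the strand setting of the counting is not given in the sources used here.

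H2-DMb1 (34153072 to 34160230) and H2-DMb2 (34143307 to 34151555), both on the plus strand, encode alternative beta chains of H2-DM. Their coding sequences, 783 bases each, are identical at 751 positions, 95.9%, so fragments can be shared between them and the split of their values is uncertain. H2-DMb1 was at 16.2, 20.4, 16.0, 26.6 and 19.6 FPKM in HCD libraries 1 to 5, against 4.07, 19.2, 11.9, 10.8 and 27.2 FPKM in NCD libraries 1 to 5. H2-DMb2 was at 39.3, 43.1, 36.4, 42.4 and 42.3 FPKM in HCD, against 12.9, 65.2, 18.99, 38.4 and 30.5 FPKM in NCD. Both were lowest in NCD library 1, and their groups overlapped. The HCD libraries of H2-DMb2 differed by 1.19-fold between the highest and the lowest and the NCD libraries by 5.04-fold. Their log2 differences were 0.60 (95% confidence interval -0.14 to 1.35, limma adjusted p = 0.217) for H2-DMb1 and 0.49 (-0.18 to 1.16, limma adjusted p = 0.265) for H2-DMb2. Summed, which does not depend on the split, they came to 52.3 to 69.0 FPKM in HCD and 17.0 to 84.3 FPKM in NCD. Alpha chain FPKM over this sum was 0.839 to 1.20 in HCD and 1.10 to 2.62 in NCD.

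The ratio of H2-Ab1 to H2-DMa was singled out after its values were seen and was not tested. It was 5.30, 4.29, 5.50, 4.22 and 5.23 in HCD libraries 1 to 5, against 1.91, 3.02, 2.62, 3.83 and 3.49 in NCD libraries 1 to 5. Every HCD library lay above every NCD library. Among all tested genes, 4.53% had every HCD library above every NCD library in their own FPKM and 12.9% had every HCD library below, and none of the 10 class II genes was among either.

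Ctss, the protease that trims the invariant chain, had the narrowest range of the 10 genes in NCD. It was at 22.6, 30.7, 28.5, 24.8 and 21.1 FPKM in HCD libraries 1 to 5, against 19.9, 24.6, 23.5, 26.0 and 24.0 FPKM in NCD libraries 1 to 5. The groups overlapped, and NCD library 1, where the chains were lowest, was the lowest of its group here too. The log2 difference was 0.10 (95% confidence interval -0.19 to 0.40, limma adjusted p = 0.622). Ctss (95526786 to 95556403) and Rfx5 (94954075 to 94961561) both lie on the plus strand of chromosome 3.

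The transactivators were far less abundant than their targets. Ciita (chromosome 16, 10480059 to 10528418, plus strand), the class II coactivator, was at 1.98, 5.13, 2.49, 5.30 and 3.32 FPKM in HCD libraries 1 to 5, against 0.820, 3.59, 2.72, 2.67 and 6.21 FPKM in NCD libraries 1 to 5. NCD library 1 was the lowest and NCD library 5 the highest, and the log2 difference was 0.22 (95% confidence interval -0.48 to 0.91, limma adjusted p = 0.662). Without NCD library 1 it was -0.05, so its sign rests on that library. Rfx5, the DNA-binding subunit of RFX, was at 0.751, 1.40, 1.05, 1.49 and 1.83 FPKM in HCD libraries 1 to 5, against 1.58, 1.51, 2.83, 1.71 and 2.00 FPKM in NCD libraries 1 to 5. It was lower on average in HCD with overlapping groups, and its log2 difference was -0.35 (95% confidence interval -0.77 to 0.07, limma adjusted p = 0.206). Ciita shares 329 exonic bases with Dexi and Rfx5 shares 1471 with an antisense gene, B230398E01Rik, so without a known strand setting their low values may hold fragments of those genes.

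Across the 10 genes, 0 passed the limma threshold of 0.05 in either direction, where 26.3% of all tested genes passed, 7.13% higher and 19.2% lower in HCD. At an unadjusted limma p under 0.05 only H2-Ab1 passed, where 39% of all tested genes did. The median log2 difference was 0.47 over the 10 genes and -0.19 over all tested genes, and 8 of the 10 differences were above 0, where 31.9% of all tested genes were. The 13 mitochondrial genes held 14.8% to 29.5% of the summed FPKM in HCD libraries and 3.23% to 5.76% in NCD libraries. Scaling without these genes gave all genes a median difference of -0.05, and H2-Ab1 then passed with a log2 difference of 0.90 (limma adjusted p = 0.0421), where 8.95% of all genes were higher. With quantile normalisation it was -0.06, and H2-Ab1 (1.00, limma adjusted p = 0.0314) and H2-Aa (0.74, limma adjusted p = 0.0383) passed, where 8.99% of all genes were higher. A single library also decided calls. Without NCD library 2, the highest of its group in 5 of the 6 chain and H2-DM genes, 4 of the 10 genes passed, where 7.63% of all genes were higher: H2-Ab1 (0.92, limma adjusted p = 0.0224), H2-DMb2 (0.78, 0.0329), H2-Aa (0.63, 0.0381) and H2-Eb1 (0.83, 0.0393). Without NCD library 1, the lowest of its group in the chain genes, Cd74, H2-DMb1 and H2-DMb2, the differences that were positive became smaller, at 0.48 for H2-Ab1, 0.33 for H2-Eb1, 0.26 for H2-Aa, 0.26 for Cd74, 0.25 for H2-DMb1 and 0.22 for H2-DMb2, and none passed. Without NCD library 5, H2-Ab1 alone passed (0.86, limma adjusted p = 0.0473), where 6.27% of all genes were higher.

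**Figure D2:**
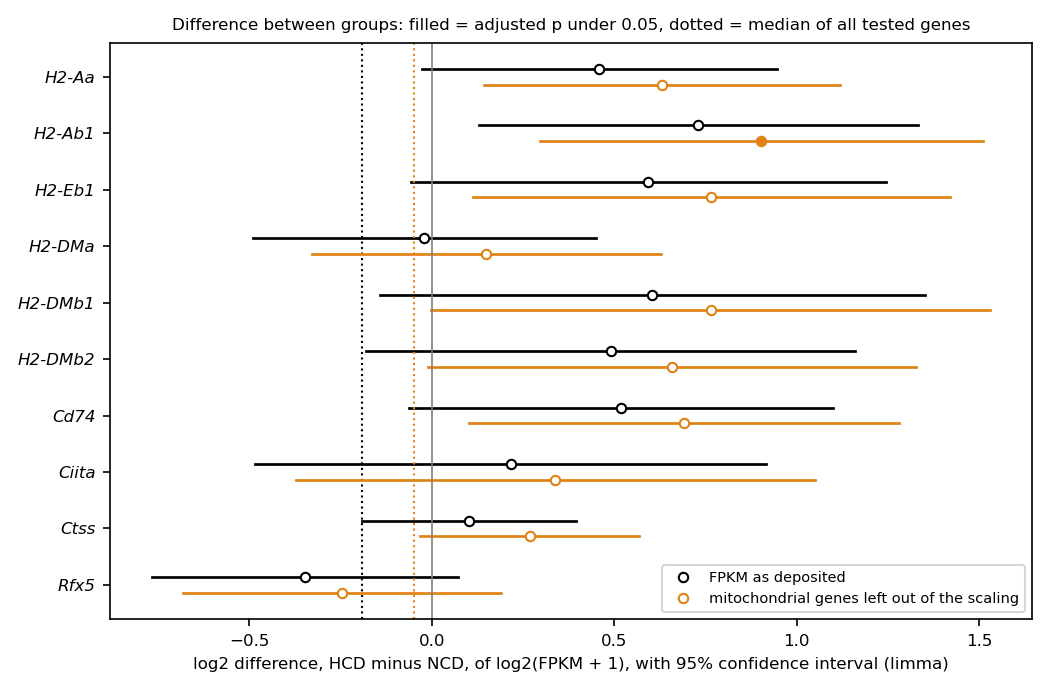
Log2 difference, HCD minus NCD, of log2(FPKM + 1) for the 10 class II genes with 95% confidence intervals from limma, for FPKM as deposited (black) and for scaling without the mitochondrial genes (orange). Filled points pass the adjusted p of 0.05 and dotted lines are the medians of all tested genes, -0.19 and -0.05. Only H2-Ab1 without the mitochondrial genes is filled, at 0.90.

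By mean FPKM over the 10 libraries the order was Cd74 (1264), H2-Ab1 (235.6), H2-Eb1 (227.8), H2-Aa (193.5), H2-DMa (60.2), H2-DMb2 (36.9), Ctss (24.6), H2-DMb1 (17.2), Ciita (3.42) and Rfx5 (1.62). Cd74 was above H2-Ab1 and H2-Aa was above H2-DMa in all 5 HCD and all 5 NCD libraries. The 3 chains kept their order among themselves in all 5 HCD libraries, where H2-Ab1 was above H2-Eb1 and H2-Eb1 above H2-Aa. In NCD each of these 2 steps held in 3 of the 5 libraries, so neighbours there did not differ beyond their spread. H2-DMb2 over Ctss and Ciita over Rfx5 likewise held in 5 HCD and 3 NCD libraries.

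The spread between libraries was wider in NCD for most class II genes, but this was not particular to them. The SD of log2(FPKM + 1) was larger in NCD than in HCD for 8 of the 10 genes, Ctss and Rfx5 being the exceptions, where 47.7% of all tested genes had the larger SD in NCD. Of the marker lists described below, so had 7 of 8 B cell and plasma cell, 9 of 11 T cell and 2 of 3 pan-leukocyte markers. Among dendritic cell and macrophage markers it was 9 of 17, and among epithelial markers 2 of 9. The median SD of the 10 genes was 0.219 in HCD and 0.708 in NCD, and over all tested genes it was 0.293 in HCD and 0.292 in NCD. The highest over the lowest library was 1.44-fold in HCD and 3.41-fold in NCD for H2-Ab1, 1.51-fold in HCD and 3.94-fold in NCD for H2-Eb1, and 1.45-fold in HCD and 3.32-fold in NCD for Cd74. Of the 10 genes, 8 had their lowest value of all 10 libraries in NCD library 1, H2-DMa had it in NCD library 3 and Rfx5 in HCD library 1.

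Markers of other cells in these libraries differed between the groups too. The 11 T cell markers summed to 1894 to 3770 FPKM in HCD and 282.9 to 900.6 FPKM in NCD. In HCD 10 of 11 tested rose, where 7.13% of all tested genes rose and 19.2% fell. The 17 markers of dendritic cells and macrophages summed to 103.1 to 320.8 FPKM in HCD and 42.2 to 140.0 FPKM in NCD. Of the 12 tested, 3 rose (Itgax, Fcer1g and Tyrobp), where 7.13% of all tested genes rose. In bulk libraries these values do not show which cells carried the 3 transcripts. Tyrobp and Fcer1g made up 158.6 and 56.2 of the 320.8 FPKM in HCD library 1. The rest of the 12 did not pass, among them Csf1r (limma adjusted p = 0.246), Adgre1 (0.481), Itgam (0.459), Cd14 (0.803) and C1qa (0.299). The dendritic cell markers Xcr1, Clec9a and Zbtb46 were under the minimum and listed at 0 in some libraries. On average Xcr1 and Clec9a were higher in HCD and Zbtb46 was lower. The Tyrobp call was lost without HCD library 1 (limma adjusted p = 0.0561), HCD library 3 (0.0548) or NCD library 3 (0.0534), while Cd68 passed without NCD library 4 (0.93, limma adjusted p = 0.0228) and Lyz2 without NCD library 2 (0.70, 0.0454). The 8 markers of B cells and plasma cells summed to 76.0 to 109.9 FPKM in HCD and 24.8 to 147.9 FPKM in NCD. Of the 6 tested 1 rose, Jchain, the joining chain of secreted IgA and IgM, where 7.13% of all tested genes rose. Without NCD library 2 there were 5 that rose, where 7.63% of all tested genes did. Added were Mzb1 (1.42, limma adjusted p = 0.00383), Cd79b (1.09, 0.0194), Cd79a (1.27, 0.0232) and Cd22 (0.79, 0.0313). Of the 9 epithelial markers 6 fell and 1, Krt20, rose, where 19.2% of all tested genes fell and 7.13% rose. The Krt20 call was lost in 7 of the 10 fits without a library (limma adjusted p of up to 0.109, without NCD library 1), and that of Krt8, among the 6, in 4 (up to 0.0639, without HCD library 2). The epithelial markers summed to 8633 to 11750 FPKM in HCD and 13170 to 14020 FPKM in NCD. Epithelium is the labelled cell type, and its markers had the highest sum of these lists in all 10 libraries. The part of these cells in the class II values was not tested.

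The marker sums and the class II genes did not follow the same order of libraries throughout. B cell and plasma cell markers summed to 105.5, 86.5, 109.9, 76.0 and 93.2 FPKM in HCD libraries 1 to 5, against 41.2, 147.9, 24.8, 66.8 and 26.9 FPKM in NCD libraries 1 to 5. NCD library 2 was the highest of its group for these markers and for the chains, whereas NCD library 5 was high for the chains and low for the markers. Jchain alone held 52.6 of the 105.5 FPKM in HCD library 1 and 14.0 of the 26.9 FPKM in NCD library 5. In deviations from the group means over the 10 libraries, H2-Ab1 and the B cell and plasma cell sum had a Pearson r of 0.475 (Spearman rho 0.297), and r was 0.131 without NCD library 2. For the sum of the 3 pan-leukocyte markers Ptprc, Cd52 and Coro1a r was 0.74 (rho 0.721), for T cell markers 0.545 (rho 0.539), for dendritic cell and macrophage markers 0.408 (rho 0.43) and for epithelial markers -0.0261 (rho 0.0909). Without NCD library 2, r for these sums was 0.636, 0.593, 0.279 and -0.0805 in the same order. The deviations of H2-Ab1 are widest in NCD, so each r rests mostly on the NCD libraries. Both sides of each value come from the same libraries and share their scaling, so these are descriptions.

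**Figure D3:**
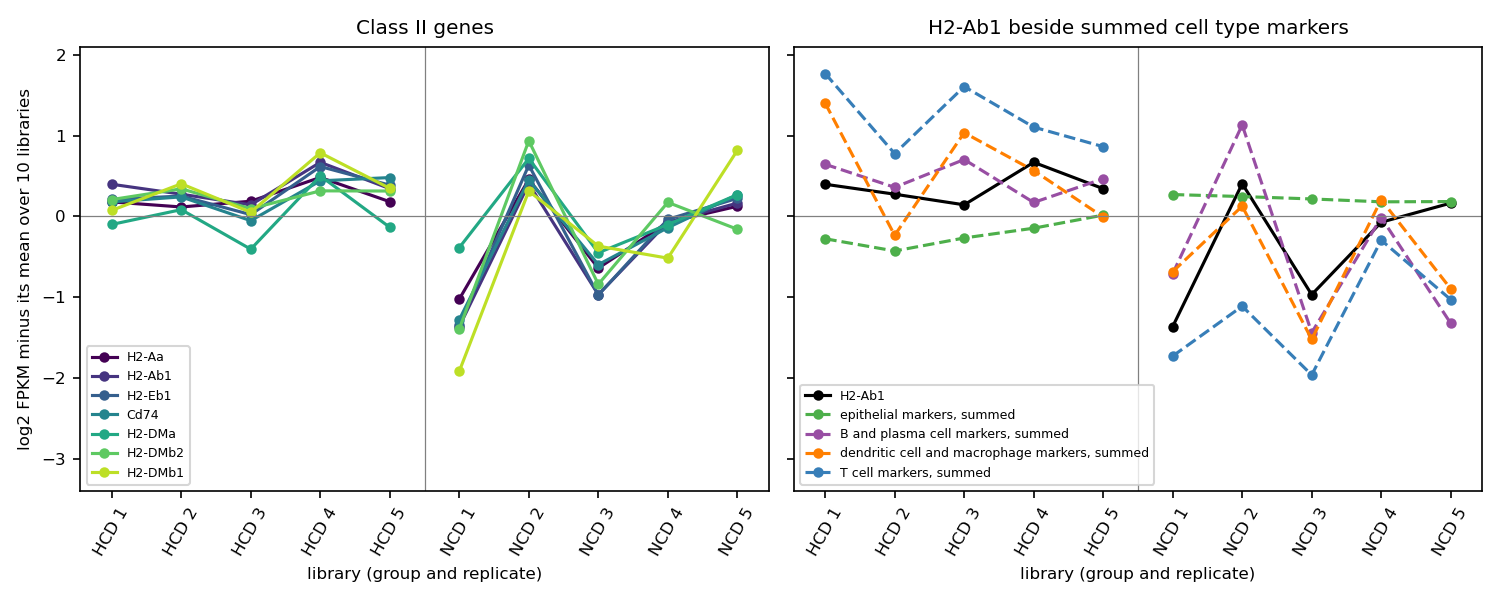
Log2 FPKM minus its mean over the 10 libraries, by library, HCD 1 to 5 and then NCD 1 to 5. The left panel shows 7 class II genes and the right panel H2-Ab1 (solid) beside summed markers of 4 cell types (dashed). The 3 chains, Cd74 and H2-DMb2 lie near each other in HCD and share a low in NCD libraries 1 and 3. H2-DMb1 is lower in NCD library 4 (10.8 FPKM) than in NCD library 3 (11.9 FPKM). H2-DMa is lower in HCD library 3 (43.9 FPKM) than in NCD library 1 (44.5 FPKM). NCD library 5 has the B cell and plasma cell sum at 26.9 FPKM and H2-Ab1 at 244.8 FPKM.

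Ratios within a library do not depend on its scaling, and 3 of them were tested for H2-Ab1 with exact two-sided permutation tests over the 10 libraries, adjusted over the 3. H2-Ab1 over Epcam, an adhesion molecule of all intestinal epithelial cells, was 1.21, 0.787, 0.713, 0.886 and 0.672 in HCD libraries 1 to 5, against 0.150, 0.627, 0.165, 0.454 and 0.394 in NCD libraries 1 to 5. All 5 HCD libraries were above all 5 NCD libraries. The log2 difference was 1.44 (exact permutation p = 0.00794, the smallest these group sizes allow, adjusted p = 0.0238). Epcam itself fell, at 343.4 ± 67.7 FPKM in HCD and 555.9 ± 96.4 FPKM in NCD (SD, n = 5 each; log2 difference -0.70, limma adjusted p = 0.00888). With quantile normalisation the Epcam difference was -0.43 and no longer passed (limma adjusted p = 0.125). Epcam was among the 6 of 9 epithelial markers that fell, while Vil1 (0.14, limma adjusted p = 0.494) did not pass and Krt20 (0.60, 0.0405) rose. The result thus holds for Epcam as the denominator. Ratios of H2-Ab1 to other epithelial markers were not tested.

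H2-Ab1 over Ptprc, the leukocyte antigen CD45, ran the other way. It was 71.9, 28.4, 67.0, 36.5 and 44.8 in HCD libraries 1 to 5, against 53.7, 146.1, 106.9, 73.6 and 84.6 in NCD libraries 1 to 5. The groups overlapped through NCD library 1, and 3 HCD libraries were below every NCD library. The log2 difference was -0.91 and did not pass after adjustment (exact permutation p = 0.0397, adjusted p = 0.0595), but it passed when HCD library 1 (-1.06, exact permutation adjusted p = 0.0476), HCD library 3 (-1.04, adjusted p = 0.0476) or NCD library 1 (-1.09, adjusted p = 0.0238) was left out. Ptprc itself was at 6.52 ± 2.81 FPKM in HCD and 2.06 ± 0.799 FPKM in NCD (SD, n = 5 each) and rose by 1.25 on the log2 scale (limma adjusted p = 0.00537). H2-Ab1 over B2m, the light chain of class I, was 0.146 to 0.309 in HCD libraries and 0.0893 to 0.320 in NCD libraries, with a log2 difference of 0.36 (exact permutation p = 0.341, adjusted p = 0.341).

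**Figure D4:**
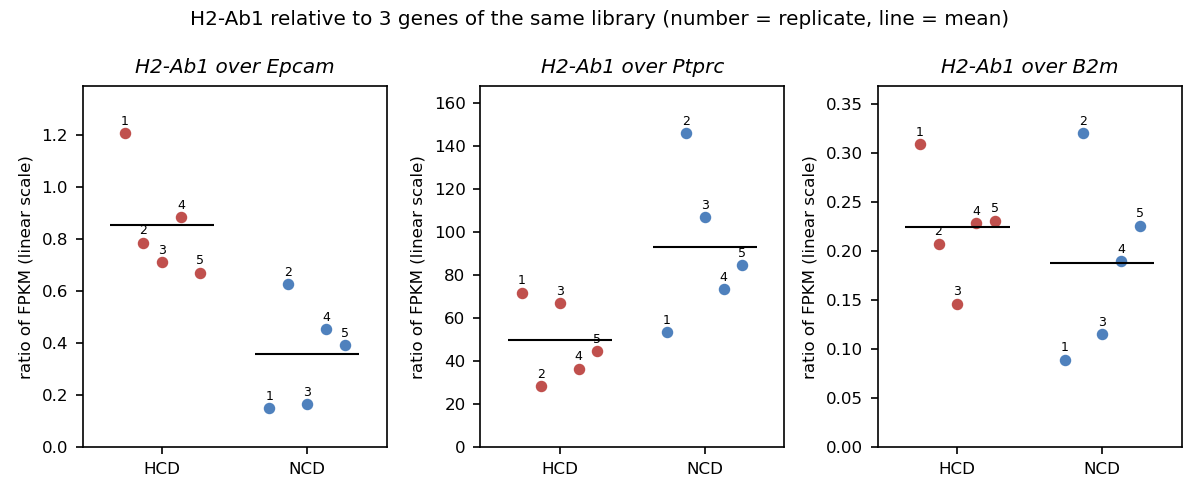
FPKM of H2-Ab1 divided by FPKM of Epcam, Ptprc and B2m of the same library, on linear axes from 0. Red points are HCD and blue points NCD libraries, the number is the replicate and the line the mean of 5 libraries. Only over Epcam are the groups apart, with 0.672 to 1.21 in HCD and 0.150 to 0.627 in NCD.

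To describe which genes shared the pattern of libraries, each tested gene was compared with H2-Ab1 by Pearson's r of the deviations from the group means of log2(FPKM + 1) over the 10 libraries. The group difference itself does not enter this measure. Deviations of H2-Ab1 ran from -0.22 to 0.30 in HCD libraries and from -0.99 to 0.77 in NCD libraries, so r rests mostly on NCD. H2-Eb1 (r = 0.992, rho 0.964) and H2-Aa (r = 0.985, rho 0.915) ranked 1 and 2 of 10320 genes, Cd74 (0.958, rho 0.903) ranked 4 and H2-DMb2 (0.919, rho 0.867) ranked 9. H2-DMa (0.837) and H2-DMb1 (0.837) ranked 53 and 54, Ciita (0.712) 247, Ctss (0.327) 1774 and Rfx5 (-0.169) 5622. The median r over all genes was -0.121, 11 genes reached 0.9 and 104 reached 0.8. Without NCD libraries 1 and 2, the farthest from their mean, r was 0.982 for H2-Eb1, 0.969 for H2-Aa, 0.881 for Cd74, 0.805 for H2-DMb2 and 0.527 for Ciita, and for Ctss it was -0.041. The other genes most like H2-Ab1 were Pip4k2a (0.969), Rfxank (0.951), Plekhm2 (0.937), Adap1 (0.93), Mib2 (0.926), H2-T23 (0.918), Zgpat (0.906), Sigirr (0.898), Tfeb (0.898) and Sh2d3c (0.894). The genes share libraries and depth, and were ranked on these same values.

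**Figure D5:**
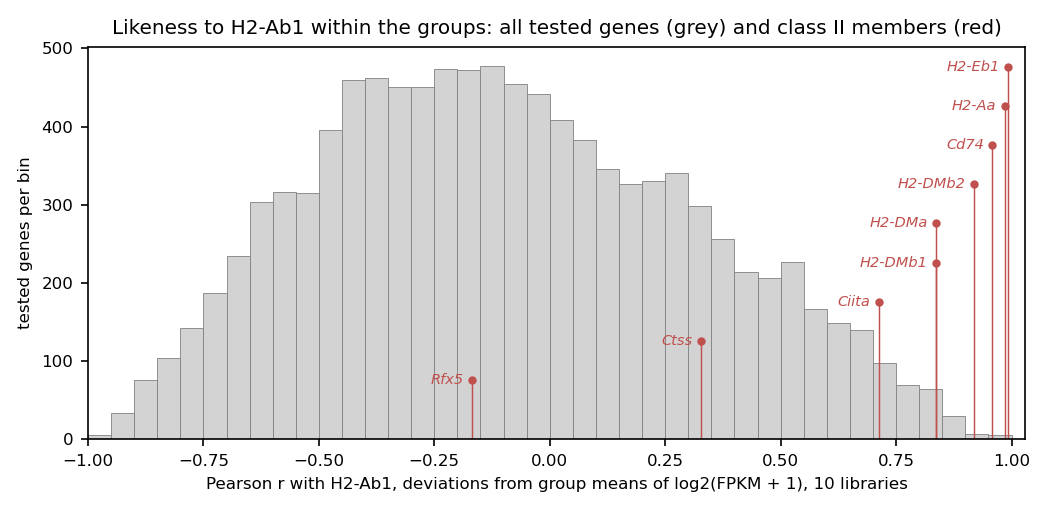
Histogram of Pearson's r with H2-Ab1 for all other tested genes, from deviations from the group means over 10 libraries (x axis, r; y axis, genes per bin of 0.05). Red lines mark the other 9 class II genes, and their heights only keep the names apart. H2-Eb1, H2-Aa, Cd74 and H2-DMb2 lie above 0.9, Ctss at 0.327 and Rfx5 at -0.169.

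The further genes of peptide loading and endosomal proteolysis numbered 13, of which 11 had a row and 9 were tested. Of these 0 rose and 1 fell, where 7.13% of all tested genes rose and 19.2% fell, and the median log2 difference was -5.94e-05, beside -0.19 for all. Ctsz, a carboxypeptidase cathepsin, fell to 188.7 ± 21.5 FPKM in HCD, against 239.0 ± 12.7 FPKM in NCD (SD, n = 5 each; log2 difference -0.35, limma adjusted p = 0.0388). Every HCD library was below every NCD library. The call was lost when scaling left out the mitochondrial genes (-0.17, limma adjusted p = 0.279) and in 8 of the 10 fits without a library (limma adjusted p of up to 0.0844, without HCD library 5). Ctsb, another cysteine cathepsin, was at 100.8 ± 10.6 FPKM in HCD and 125.2 ± 8.20 FPKM in NCD and missed the threshold (log2 difference -0.31, limma adjusted p = 0.0551), although every HCD library was below every NCD library. It passed with no minimum (limma adjusted p = 0.0469), with a minimum of 5 FPKM (0.0427) and as TPM (0.0277). The aminopeptidase cathepsin Ctsh missed the threshold as well (-0.41, limma adjusted p = 0.128). H2-Oa, the alpha chain of H2-O, was at 2.78 to 7.16 FPKM in HCD and 0.711 to 10.1 FPKM in NCD, where library 2 was the highest of all. Its log2 difference was 0.77 (limma adjusted p = 0.19), and 1.22 without NCD library 2 (limma adjusted p = 0.00769). H2-Eb2 and the ubiquitin ligase gene March1 were under the minimum, and H2-Ea and Ifi30 had no row.

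Among 6 tested of 7 listed further regulators of class II promoters, 0 rose and 1 fell, where 7.13% of all tested genes rose and 19.2% fell, with a median log2 difference of -0.09. The untested gene was Prdm1, a repressor of Ciita in plasma cells, at 0.698 to 1.297 FPKM in HCD libraries and 0.145 to 0.560 FPKM in NCD libraries. Its groups did not overlap, and it passed with no minimum on FPKM (0.50, limma adjusted p = 0.0251). Nfyc, a subunit of NF-Y, which binds the Y box, fell to 32.5 ± 4.47 FPKM in HCD, against 47.9 ± 8.13 FPKM in NCD (SD, n = 5 each; log2 difference -0.54, limma adjusted p = 0.0152). When scaling left out the mitochondrial genes it was -0.37 and did not pass (limma adjusted p = 0.0801). The NF-Y subunit Nfya (-0.55, limma adjusted p = 0.091) and the RFX subunit Rfxap (-0.33, limma adjusted p = 0.197) missed the threshold. Rfxank, the third RFX subunit, was at 18.3 ± 1.42 FPKM in HCD and 15.3 ± 3.19 FPKM in NCD (log2 difference 0.26, limma adjusted p = 0.227), and like the chains it was lowest in NCD library 1 at 10.7 FPKM.

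Interferon-gamma is known to induce Ciita outside professional antigen-presenting cells, so its receptor and a list of its signalling and target genes were counted. Of 20 listed genes 11 were tested, 2 rose and 1 fell, where 7.13% of all tested genes rose and 19.2% fell, and the median log2 difference was 0.13. Ido1, a tryptophan-degrading enzyme, was at 3.54, 1.75, 3.76, 4.34 and 3.52 FPKM in HCD libraries 1 to 5, against 0.199, 0.203, 0.445, 0 and 1.10 FPKM in NCD libraries 1 to 5. All HCD libraries were above all NCD libraries, and the log2 difference was 1.67 (limma adjusted p = 0.000486). Ido1 averaged 3.38 FPKM in HCD and 0.389 FPKM in NCD, so it reached the minimum of 1 FPKM only through HCD. A minimum of 5 FPKM leaves out Ido1 and Irgm2. With it 0 genes of this list rose, where 433 of 6452 tested genes did. Irgm2, an immunity-related GTPase, rose by 0.72 (limma adjusted p = 0.0217), and without NCD library 1 it was at 0.61 (limma adjusted p = 0.0606). Socs1, a suppressor of cytokine signalling, was at 4.90 ± 1.22 FPKM in HCD and 3.03 ± 1.02 FPKM in NCD (SD, n = 5 each) and missed the threshold (log2 difference 0.56, limma adjusted p = 0.0699). It passed without HCD library 2 (0.68, limma adjusted p = 0.039) or NCD library 2 (0.67, limma adjusted p = 0.0399), and when scaling left out the mitochondrial genes (0.70, limma adjusted p = 0.0413). Ifngr1, the ligand-binding receptor chain, fell to 55.9 ± 13.1 FPKM in HCD, against 103.0 ± 20.4 FPKM in NCD (SD, n = 5 each; log2 difference -0.88, limma adjusted p = 0.00359). Of the 9 untested genes, Gbp2, Gbp3, Gbp4, Gbp6, Gbp7, Iigp1, Cxcl9 and Cxcl10 averaged under 1 FPKM over the 10 libraries. All of these but Cxcl10 were higher on average in HCD, at these low values and without a test. Ifng itself was under the minimum too, at 1.25 ± 0.835 FPKM in HCD and 0.434 ± 0.407 FPKM in NCD. The more abundant Irf1 (-0.07, limma adjusted p = 0.794) and Irf8 (-0.15, limma adjusted p = 0.449) did not pass.

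Costimulation and class I presentation were set beside the class II genes. Of 6 costimulatory genes 4 were tested, 1 rose and 0 fell, where 7.13% of all tested genes rose, with a median of 0.32, while Cd86 and Cd40 were under the minimum. Cd274, encoding PD-L1, was at 3.20 ± 0.811 FPKM in HCD and 1.48 ± 0.486 FPKM in NCD (SD, n = 5 each), rose by 0.76 (limma adjusted p = 0.0145) and did not overlap between the groups. Of 11 class I genes, all tested, 2 rose and 0 fell, where 7.13% of all tested genes rose and 19.2% fell, with a median of 0.13. Without HCD library 1 there were 4 that rose, where 697 of 10321 genes did. Added were B2m (0.49, limma adjusted p = 0.0249) and Nlrc5. Without HCD library 4 the proteasome subunit gene Psmb10 fell (-0.41, limma adjusted p = 0.037), where 1700 of 10321 genes fell. When scaling left out the mitochondrial genes 4 rose, where 8.95% of all genes were higher. H2-D1 was among them (0.52, limma adjusted p = 0.0209), and its difference in FPKM as deposited was 0.35 (limma adjusted p = 0.1). H2-K1, a classical class I heavy chain, was at 195.0, 176.2, 232.7, 226.8 and 189.4 FPKM in HCD libraries 1 to 5, against 100.3, 152.4, 98.0, 141.0 and 160.7 FPKM in NCD libraries 1 to 5. It rose by 0.66 without overlap (limma adjusted p = 0.00896), and in NCD its 2 lowest libraries were also the 2 lowest for the class II chains. Tapbp, the peptide-loading chaperone tapasin, rose by 0.44 (limma adjusted p = 0.0406), a call that was lost without NCD library 1 (0.33, limma adjusted p = 0.105) and in 5 more of the 10 fits that leave out a library. Nlrc5, the class I counterpart of Ciita, missed the threshold (0.69, limma adjusted p = 0.0694), and passed without HCD library 1 (0.85, limma adjusted p = 0.0375). It averaged 1.78 FPKM in HCD and 0.586 FPKM in NCD, so it reached the minimum of 1 FPKM only through HCD. HCD library 3 was its highest, at 4.165 FPKM.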

How the data were processed

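The authors deposited FPKM per gene for 10 libraries of mouse small intestinal epithelial cells. Per the labels' protocols, TRIzol was used for extraction and poly-T beads for selecting messenger RNA. The submitters' processing notes name HISAT2, StringTie, DESeq2, edgeR and GRCm38, without versions or roles. Nothing in the sources used here gives the annotation, any filter or the strand setting. Since FPKM are shares of a library, abundant transcripts lower all others. Whether low values are whole multiples of what a fragment is worth was checked. The best step put 24.4% to 30.6% of them within 0.1 of a whole number, against 20% by chance. Reads were thus not recovered, the depth of each library is unknown and counting intervals are not printed.

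The titles gave the groups, 5 HCD and 5 NCD. Values were log2(FPKM + 1), with a minimum mean of 1 FPKM, and limma 3.58.1 in R 4.3.3 was applied (lmFit, eBayes with a trend). Its two-sided p-values were adjusted by Benjamini-Hochberg over all 10321 genes, at a threshold of 0.05. A difference is HCD minus NCD and understates changes of low genes. Exact permutations and figures used Python 3.11.15 with scipy 1.17.1 and matplotlib 3.10.9. The code was tested on simulated data. Coordinates came from GENCODE release M21, which held 22022 of the 22036 Ensembl identifiers, and 27 symbols turned into dates were restored by identifier. Coding sequences came from GENCODE and promoters from RefSeq.

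The members, lists and tests were chosen with earlier results of these data known. The text names all members, up to 4 genes of each pathway list with the smallest p, some genes of a list under the minimum, the 10 genes most like H2-Ab1, and the ratios' denominators. Some further list genes and cell type markers were picked for naming after their values were seen. Alternatives were other pseudocounts, filters and scalings, TPM, no trend, a replicate block, each library left out, and replicates 1 to 3 or 4 and 5 alone. An item is not reported here and was left out of the lists and their counts.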

Additional observations from a re-analysis of the deposited data

Results flagged for a closer look

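In 104 groups of 5 values, a library was set apart where its gap to the nearest other exceeded 0.71 of the group's range. Chance does this in about 1 group in 20, and it happened in 5. H2-Aa was at 259.2 FPKM in HCD replicate 4 and 201.1 to 211.3 FPKM in the other HCD libraries. H2-Oa was at 10.1 FPKM in NCD replicate 2 and 0.711 to 2.99 FPKM in the other NCD libraries. Nlrc5 was at 0.915 FPKM in NCD replicate 4 and 0.461 to 0.567 FPKM in the others. The macrophage marker Cd68 stood apart in both groups, at 9.47 FPKM in HCD replicate 1 beside 3.08 to 4.04 FPKM and at 6.34 FPKM in NCD replicate 4 beside 1.32 to 2.34 FPKM.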

How the results depend on the processing

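Of all tested genes, 736 were higher in HCD, against 433 with a minimum of 5 FPKM, 414 in replicates 1 to 3 alone and 45 in replicates 4 and 5 alone. Lower in HCD were 1982, against 883 with quantile normalisation, 861 without the mitochondrial genes in the scaling, 1006 in replicates 1 to 3, 11 in replicates 4 and 5, and 1319 (without NCD library 1) to 2036 with a library left out. Class II genes higher in HCD numbered 0, but 2 with quantile normalisation, 1 without the mitochondrial genes and 0 to 4 with a library left out. Log2 differences with quantile normalisation were 1.00 for H2-Ab1 and 0.74 for H2-Aa, and 0.90 for H2-Ab1 without the mitochondrial genes. With a library left out they ranged from 0.48 to 0.92 for H2-Ab1, 0.26 to 0.63 for H2-Aa, 0.334 to 0.825 for H2-Eb1, 0.22 to 0.78 for H2-DMb2, 0.262 to 0.695 for Cd74, 0.253 to 0.871 for H2-DMb1, -0.0528 to 0.44 for Ciita and -0.15 to 0.15 for H2-DMa. H2-DMa, at -0.02, reversed to 0.24 with quantile normalisation, 0.15 without the mitochondrial genes and 0.0984 in replicates 4 and 5. Ctss was -0.12 in replicates 4 and 5. Icosl, at -0.07, reversed to 0.14 with quantile normalisation, 0.0908 without the mitochondrial genes and 0.00634 in replicates 1 to 3. The log2 ratio to Epcam differed by 1.82 in replicates 1 to 3 and 0.87 in replicates 4 and 5, subsets too small for the exact permutation test to pass, and that to Ptprc by -1.09 to -0.72 with a library left out. The causes were not tested.

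Same replicate numbers were not taken as pairs. Correlations of same-numbered deviations were 0.218, -0.235, -0.197, 0.00793 and 0.0962. HCD libraries 1 and 5 correlated best with their own numbers, but HCD libraries 2, 3 and 4 did not, which cannot exclude a pairing. With the replicate block 673 genes were higher, 1620 lower and 0 class II genes passed (H2-Ab1 limma adjusted p = 0.051). Depth is unknown, so how far counting noise limits Ciita and Rfx5 cannot be given.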

Other observations

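Some ratios between class II genes were looked at without a test. H2-Ab1 over H2-Aa, the beta over the alpha chain of 1 dimer, was 1.14 to 1.37 in HCD libraries and 0.930 to 1.21 in NCD libraries. H2-Eb1 over H2-Ab1 was 0.847 to 0.995 in HCD and 0.963 to 1.13 in NCD. H2-DMb2 over H2-DMb1, whose split is uncertain, was 1.59 to 2.42 in HCD and 1.12 to 3.57 in NCD. H2-Ab1 over Rfx5 was 151.5 to 383.1 in HCD and 39.3 to 191.5 in NCD, with Rfx5 near the minimum. H2-Oa over H2-DMa was 0.0338 to 0.132 in HCD and 0.0167 to 0.106 in NCD.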
